A study of Mus musculus with 96 samples.

Results

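The 8 genes described here, *Tnnt1*, *Tnnc1*, *Tnni1*, *Myl2*, *Myl3*, *Myh7*, *Atp2a2*, and *Mb*, are the slow-twitch sarcomere genes of a series that counted reads for 41575 gene symbols. They were taken by name, as the slow or cardiac isoforms of the contractile apparatus together with the slow calcium pump and myoglobin, and not by a threshold on a measured value. Bulk RNA was sequenced from 16 tissues of mice aged 3 weeks, with 3 wild-type and 3 Scx-/- libraries for each tissue and 96 libraries in all. Scx-/- mice were homozygous for loss of *Scx*, which encodes the tendon transcription factor Scleraxis, and the labels restrict the loss to no tissue. No source used here gives the strain, the sex, or the mouse behind each library, so *p*-values measure the spread between libraries, which may be technical.

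Skeletal muscle is built from slow and fast fibres, and most of the proteins of the sarcomere have a separate gene for each. Myosin (*Myh7* for the heavy chain, *Myl2* and *Myl3* for the light chains) pulls on actin when calcium binds troponin C (*Tnnc1*), which acts through troponin I (*Tnni1*) and troponin T (*Tnnt1*). SERCA2 (*Atp2a2*) then returns calcium to the store, and myoglobin (*Mb*) holds oxygen in fibres that rely on oxidative metabolism. The ventricle of the heart shares *Tnnc1*, *Myl2*, *Myl3*, *Atp2a2*, and *Mb* with slow fibres but uses its own troponin I and T, and in the mouse heart *Myh7* is the fetal myosin that *Myh6* replaces after birth. *Atp2a2* is also the calcium pump of most other cells.

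Libraries held 11244 to 1658192 counts (median 251640), and levels are given as CPM, each count scaled by the total of its library. The study calls its libraries enriched for the 3′ end, whereas the record of the series names a Smart-seq2-based technique. Whether counts grow with gene length was therefore not settled, and levels were compared between libraries and not between genes. Intervals and floors cover counting error only. *Scx* had a count in 12 of 48 wild-type libraries. Among the Scx-/- libraries, 47 of 48 were at 0, and the exception was the cartilage library labelled Scx-/- 1, with 9 counts of *Scx* (37.2 CPM), which goes against its label. Which part of the gene is deleted is not given, so these counts check the labels only where the counted end is lost. In muscle, *Scx* stood at 0, 12.6, and 14.8 CPM in the wild-type libraries and at 0 in all 3 Scx-/- libraries. In heart it was at 0 in all 6 libraries, and the gene does not check the labels there. Of the muscle and heart libraries, wild-type muscle 1 (30409 counts) and wild-type heart 2 (11244 counts) were the shallowest, and counts of called members are also given without them.

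The sequences upstream of 5 members show the DNA from which these genes start, with known muscle motifs searched on both strands in the 250 bases before each start. The motifs were the E-box (CANNTG), which binds MyoD and its relatives, the MCAT element (CATTCC), which binds TEAD factors, and the MEF2 and CArG boxes. Each line gives 130 bases of GRCm38.p6 from RefSeq, 5′ to 3′ on the strand of the gene, holding no annotated exon of the gene, and capitals mark matches to one of these motifs. Coordinates in order are chr7:4516005-4516134 (minus strand), chr14:31208182-31208311 (plus), chr1:135799272-135799401 (plus), chr9:110763516-110763645 (plus), and chr14:54994627-54994756 (minus). The runs of *Tnnt1*, *Tnni1*, and *Myl3* fall inside the gene's GENCODE span, in an intron of a longer transcript, and the other two lie just upstream of the gene.
Tnnt1: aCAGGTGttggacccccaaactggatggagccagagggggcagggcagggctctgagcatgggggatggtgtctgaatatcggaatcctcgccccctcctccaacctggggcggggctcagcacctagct
Tnnc1: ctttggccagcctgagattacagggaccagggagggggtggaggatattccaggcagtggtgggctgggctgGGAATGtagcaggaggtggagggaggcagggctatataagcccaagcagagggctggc
Tnni1: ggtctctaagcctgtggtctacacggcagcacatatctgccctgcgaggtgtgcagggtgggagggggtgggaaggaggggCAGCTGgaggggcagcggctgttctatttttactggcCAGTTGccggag
Myl3: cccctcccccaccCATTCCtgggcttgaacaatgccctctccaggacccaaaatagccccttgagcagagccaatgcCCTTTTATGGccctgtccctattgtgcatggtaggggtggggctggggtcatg
Myh7: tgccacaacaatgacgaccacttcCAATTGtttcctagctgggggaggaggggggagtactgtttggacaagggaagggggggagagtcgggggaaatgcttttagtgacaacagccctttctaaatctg

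Of the 7 members with a promoter window, all 7 held an E-box in at least 1 window, as did 69.3% of 27025 genes counted in the same way, so the match sets the members little apart. An MCAT element stood upstream of 3 of 7 members, *Tnnc1*, *Myl3*, and *Myh7*, against 14.4% of genes. A CArG box was found for 1 of 7, *Myl3* (1.62% of genes), and a MEF2 box for 0 of 7 (3.42%). A match is a run of letters in this window and says nothing of binding. For *Myl2*, both windows (chr5:122092474-122092773 and chr5:122092939-122093238) lay before its GENCODE span, which starts at 122100951. The bases just before that start were not searched.

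The genes lie apart in the genome (GRCm38/mm10, GENCODE coordinates). *Tnnt1* spans chr7:4504570-4516382, *Tnnc1* chr14:31208312-31211729, *Tnni1* chr1:135779434-135810989, and *Myl3* chr9:110741861-110769798. *Myl2* (chr5:122100951-122113472) and *Atp2a2* (chr5:122453513-122502225) share a chromosome. *Myh7* (chr14:54970684-54994626) lies beside *Myh6* (chr14:54941921-54966927), and *Mb* spans chr15:77015487-77050670. Of the 50-base windows of the *Myh7* transcript, 22.2% occur in another gene, chiefly *Myh6*, and among the last 500 windows, the stretch that would matter if reads came from the 3′ end, 55% do. Reads of these 2 genes may therefore have been split or lost in counting, while *Tnnt1*, *Tnnc1*, *Myl2*, *Myl3*, and *Mb* share no such window.

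The members centred on heart and on the tissues that held skeletal muscle. *Tnnc1*, *Myl2*, *Myl3*, *Atp2a2*, and *Mb* were highest in heart in both genotypes, and the heart libraries of each lay above all libraries of the next tissue. Myoglobin averaged 16566 ± 2261 CPM (SD, n = 3) in wild-type heart, against 2759 ± 1272 in cartilage, 1849 ± 1340 in bone, and 1766 ± 1155 in muscle, and the last 3 tissues overlapped. The ventricular light chains were likewise highest in heart. *Myl2* averaged 10311 ± 1464 CPM in wild-type heart and 720.4 ± 462 in muscle, and *Myl3* 10391 ± 3355 and 414 ± 500.5.

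The troponins of slow fibres, *Tnnt1* and *Tnni1*, had the other order. Wild-type *Tnnt1* averaged 482 ± 198 CPM in cartilage and 468 ± 215 in muscle, which overlapped, and 20.2 ± 26.3 in heart, which was lower than every library of the first 2. In Scx-/- mice cartilage alone stood high, at 665 ± 121 CPM, 10.2-fold over bone as the next tissue on library totals. Bone (65.1 ± 64.4) and muscle (59.8 ± 26.3) overlapped there. Wild-type *Tnni1* could not be ordered among bone, muscle, rectum, and cartilage (191 to 214 CPM on average), and in Scx-/- mice cartilage led with 319 ± 101 CPM. *Myh7* was highest in cartilage in wild-type mice (533 ± 91.9 CPM, overlapping muscle at 242 ± 199.9) and in heart in Scx-/- mice (2499 ± 1397 CPM, 3.78-fold over cartilage).

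**Figure D1:**
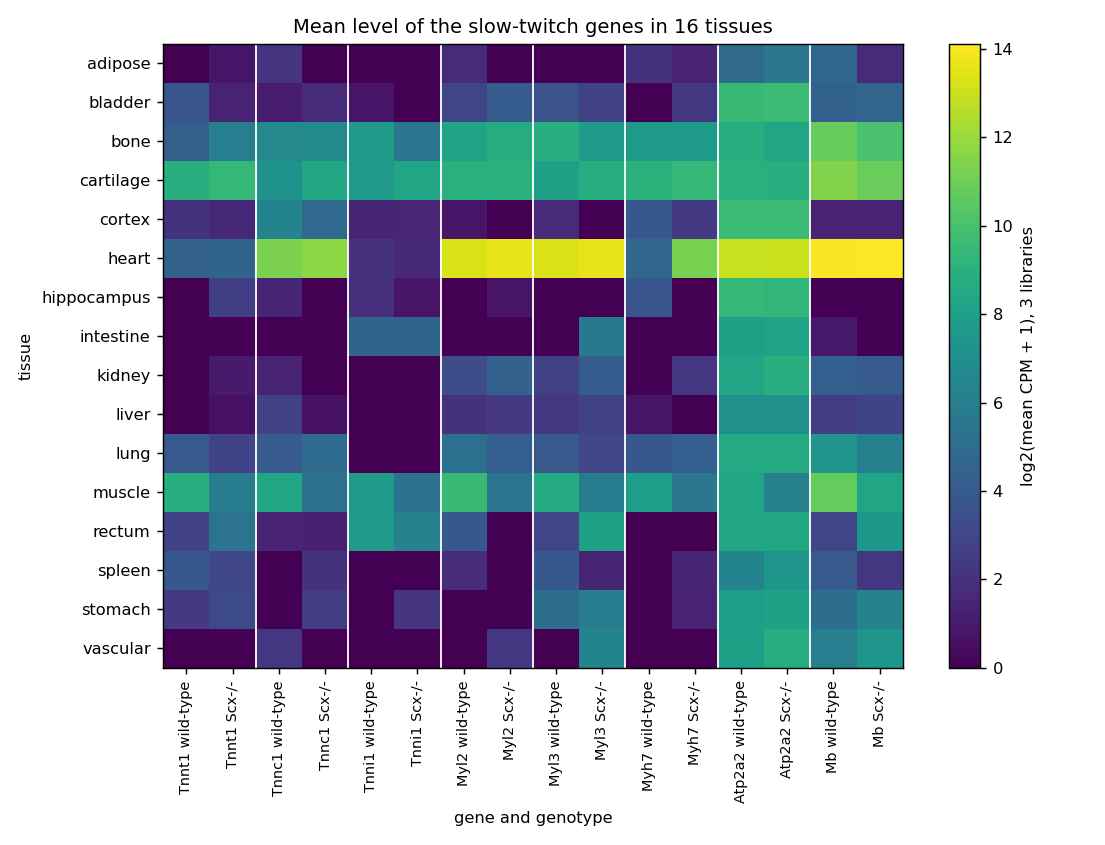
Mean level of each gene in 16 tissues (rows) for wild-type and Scx-/- libraries (paired columns), as log2(mean CPM + 1) over 3 libraries in colour. Heart, cartilage, bone, and muscle carried most members, *Atp2a2* was present throughout, and wild-type muscle was brighter than Scx-/- muscle in every pair of columns.

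*Atp2a2* had a count in all 96 libraries, and in wild-type cortex (794 ± 139 CPM) and bladder (768 ± 153) it exceeded muscle (323 ± 94.4) in every library. The other members had a count in 36 (*Tnni1*) to 73 (*Mb*) of 96 libraries. In the 66 libraries outside heart, muscle, cartilage, bone, and rectum, *Tnni1* had a count in 13, *Myh7* in 21, *Tnnt1* in 23, *Tnnc1* in 25, *Myl2* in 28, *Myl3* in 29, and *Mb* in 45. A single vascular library, Scx-/- 3, held 503 CPM of *Mb* and 235 of *Myl3*, the highest of those 66, and its cardiac marker genes summed to 2370 CPM.

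Patterns were then compared across the 32 tissue and genotype means by Pearson's r of log2(mean CPM + 1), as a description, since the points share libraries and scaling. The summed members were most like *Slc25a4* (r = 0.927), *Adprhl1* (0.861), *Myoz2* (0.843), *Ckmt2* (0.836), and *Hspb7* (0.833) among 12184 genes. *Mb* lay closest to *Myoz2* (0.928), *Myl2* to *Ckmt2* (0.901), *Tnnt1* to *Ip6k3* (0.897), *Myl3* to *Csrp3* (0.879), *Tnni1* to *Mybpc1* (0.810), and *Atp2a2* to *Pam* (0.772). *Tnnc1* and *Myh7* were each other's closest gene (0.876). Within the 8, r ran from 0.0909 for *Tnni1* with *Atp2a2* to 0.877 for *Myl3* with *Mb*.

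In skeletal muscle the question was what the loss of *Scx* did to a tissue that tendon attaches to bone. All 8 members were lower in Scx-/- muscle, by 3.52-fold (*Mb*) to 11.5-fold (*Myl2*) in the fit, and 7 of 8 had no overlap between the groups, against 2.17% of all genes. The 1 that fell at an adjusted *p* below 0.05 was *Myl2*, against 0.0482% of all genes. The 13 listed genes of fast fibres made up 18.2% to 20.7% of counts in the muscle libraries, and none of them passed the test. The 4 members *Tnnt1*, *Tnnc1*, *Tnni1*, and *Atp2a2* are named by the study as lower in muscle in these libraries, so their direction is not independent evidence. The labels read muscle and name no particular one, and whether the same muscle was sampled in both genotypes was not tested. In bulk tissue, fewer slow fibres and less slow RNA per fibre cannot be told apart.

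Of the myosin chains, *Myl2*, the regulatory light chain, stood at 1085, 201, and 875 CPM in wild-type muscle and at 77.1, 32.4, and 20.8 in Scx-/- muscle. The lowest wild-type library was above the highest Scx-/- library, and the fitted log2 fold change was -3.52 (SE 0.64, approximate, edgeR quasi-likelihood adjusted *p* = 0.000106). *Myl3*, the essential light chain, stood at 32.9, 228, and 981 CPM against 91.4, 89.3, and 4.62. It was the 1 member whose groups overlapped, through a wild-type library in which it had a single count. The heavy chain *Myh7* stood at 98.7, 157, and 470.3 CPM in wild-type and 81.9, 54.4, and 5.77 in Scx-/- muscle, with no overlap. Its lowest wild-type value rests on 3 counts.

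The 3 troponin subunits were lower in every Scx-/- library. *Tnnt1*, which ties troponin to tropomyosin, stood at 428, 275, and 700.2 CPM in wild-type muscle and 90.2, 45.3, and 43.9 in Scx-/- muscle. The calcium sensor *Tnnc1* stood at 559, 159, and 240.4 CPM against 43.9, 51.8, and 20.8. For the inhibitory subunit *Tnni1* the values were 132, 110.2, and 379.7 CPM against 75.9, 32.4, and 6.93. None of the 3 overlapped between genotypes.

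Outside the filaments, the calcium pump gene *Atp2a2* stood at 362, 216, and 392 CPM in wild-type muscle and 81.9, 75.1, and 54.3 in Scx-/- muscle. *Mb* stood at 3058, 832, and 1409 CPM against 592, 197, and 199.7. Neither overlapped. Summed over the 8 genes, wild-type muscle held 5755, 2179, and 5448 CPM and Scx-/- muscle 1134, 577, and 357.

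**Figure D2:**
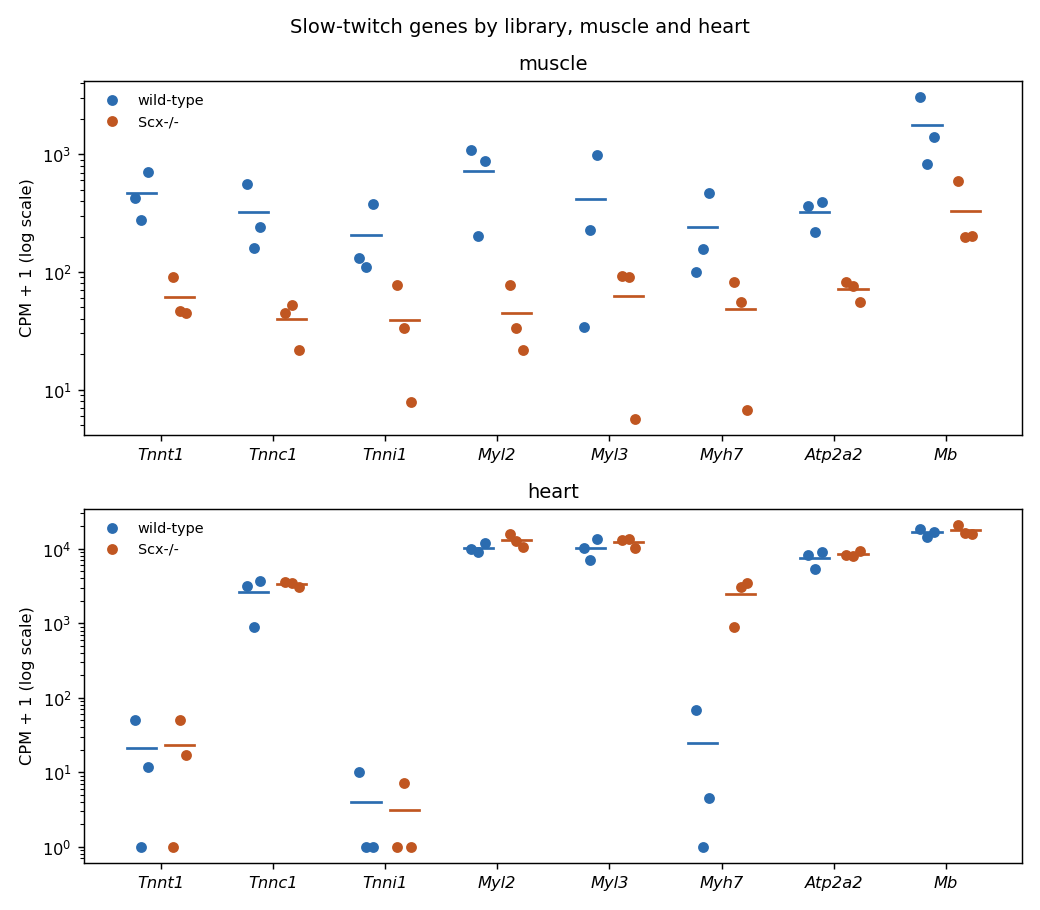
CPM + 1 on a log axis for each of the 8 genes in muscle (upper panel) and heart (lower panel), 1 point per library with wild-type and Scx-/- side by side and a line at the mean. In muscle the wild-type points lay above the Scx-/- points for every gene but *Myl3*, and in heart *Myh7* alone separated the genotypes.

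By the edgeR quasi-likelihood test, adjusted over all 14532 genes of muscle, 1 of 8 members was called. The next smallest adjusted *p* values were 0.0614 for *Tnnt1* (log2 fold change -2.64, SE 0.64) and 0.0625 for *Myl3* (-2.66, SE 0.65). *Mb* (-1.82) followed at 0.166, *Tnnc1* (-2.42) at 0.336, *Myh7* (-2.19) at 0.546, *Tnni1* (-2.19) at 0.616, and *Atp2a2* (-1.82) at 0.771. The median log2 fold change of the 8 was -2.31, beside 0.24 for all genes tested under this scaling and -0.01 when library totals were used instead. At the thresholds of the study's methods (unadjusted *p* below 0.05 and a change of more than 2-fold), 8 of 8 members were lower by edgeR, against 2.44% of all genes. DESeq2, the tool of the study, gave 7 of 8 at these thresholds, and edgeR with a replicate block gave 6. Without wild-type muscle 3 the edgeR count was 4, and without Scx-/- 3 it was 5.

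The number of members called depended on the shallow library and on the scaling. Without wild-type muscle 1 (30409 counts), 5 of 8 members were called, beside 59 of all 14421 genes in that fit (0.409%) in place of 7 of 14532, and without wild-type 3, Scx-/- 2, or Scx-/- 3 the number was 0. Every one of the 8 log2 fold changes stayed below 0 in all of these fits. Scaling by library totals called 5 members, beside 32 of all genes (0.220%), and DESeq2 called 4, beside 12 of the 6347 genes to which it gave an adjusted *p* (0.189%).

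**Figure D3:**
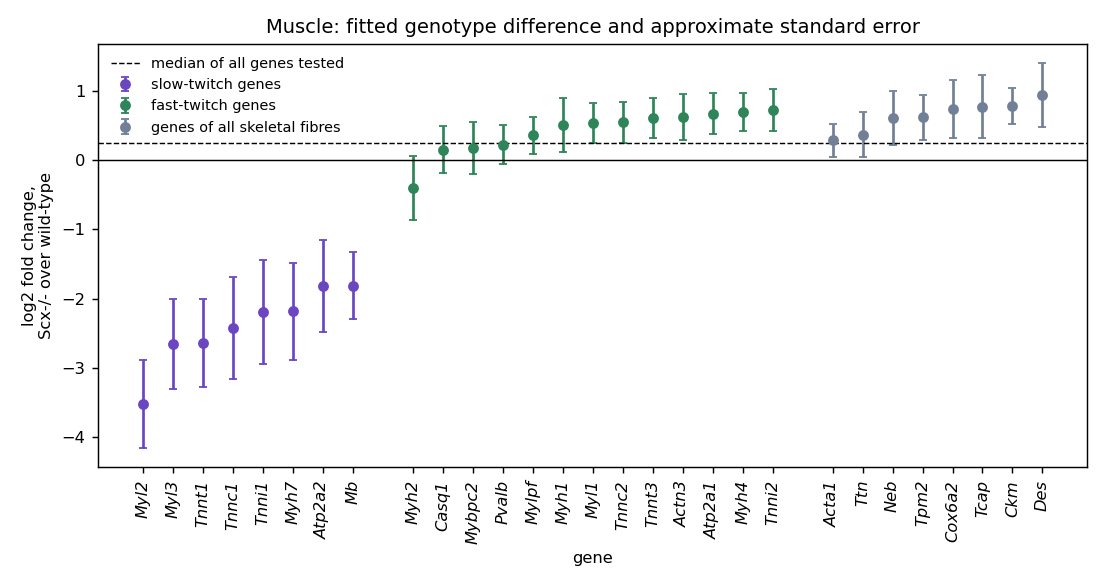
Fitted log2 fold change in muscle (Scx-/- over wild-type) with its approximate standard error for the 8 slow-twitch genes, 13 fast-twitch genes, and 8 genes of all skeletal fibres, with a dashed line at the median of all genes tested. The slow genes lay between -3.52 and -1.82, and the fast genes between -0.40 and 0.72.

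The fast partners were abundant in both genotypes. *Tnnt3* stood at 19928, 15884, and 16327 CPM in wild-type muscle and 19915, 19326, and 20631 in Scx-/- muscle. The fast myosin *Myh4* stood at 20718, 25687, and 26831 CPM against 29391, 35439.7, and 29802, and the fast pump gene *Atp2a1* at 22625, 16191, and 13482 against 20283, 20623, and 19932. Of 13 fast-twitch genes, 12 had a log2 fold change above 0 and the median was 0.53. By edgeR and by DESeq2 0 of the 13 were called, and 4 had an unadjusted edgeR *p* below 0.05 with a log2 fold change above 0, against 4.65% of all genes at that *p* in either direction. Of the 8 measured genes of all skeletal fibres, which include *Acta1* and *Ckm*, 0 were called by either tool and 2 had an unadjusted *p* below 0.05, with a median of 0.68.

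Set against its fast partner within each library, each slow gene had a lower ratio in Scx-/- muscle. The Scx-/- minus wild-type difference in log2 ratio was -3.16 for *Tnnt1*/*Tnnt3*, -3.13 for *Tnni1*/*Tnni2*, -3.10 for *Tnnc1*/*Tnnc2*, -3.98 for *Myl2*/*Mylpf*, -3.11 for *Myh7*/*Myh4*, and -2.44 for *Atp2a2*/*Atp2a1*. These 6 pairs did not overlap and reached an exact two-sided permutation *p* of 0.1, the smallest that 3 against 3 libraries allow. *Myl3*/*Myl1* differed by -2.82, with overlap and an exact *p* of 0.3. Wild-type muscle had 25.5 reads of *Tnnt1* per 1000 of *Tnnt3* (geometric mean, 17.4 to 43.0 over libraries), and Scx-/- muscle had 2.86 (2.15 to 4.56). Outside muscle some pairs also did not overlap between genotypes. Scx-/- ratios were lower in rectum for *Tnni1*/*Tnni2* (-5.40), *Tnnc1*/*Tnnc2* (-4.63), and *Myl2*/*Mylpf* (-4.06), and in bone for *Myl3*/*Myl1* (-1.35). They were higher in cartilage for *Tnni1*/*Tnni2* (0.83) and *Tnnc1*/*Tnnc2* (0.98), and in heart for *Myh7*/*Myh4* (5.55).

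No other listed gene of the slow and oxidative programme passed the edgeR test. Of 12 accessory genes of slow and cardiac sarcomeres, 0 were called, 0 had an unadjusted *p* below 0.05, and the median log2 fold change was 0.26. Of these 12, 8 had a log2 fold change above 0 and 4 below 0, the lowest being *Tpm3* at -1.04. Among the most abundant, mean levels in wild-type and Scx-/- muscle were 1952 and 2144 CPM for *Ldb3*, a Z-disc protein, 1279 and 1461 for *Fhl1*, a LIM-domain protein, and 640 and 697 for *Mybpc1*, the slow myosin-binding protein C. Of 11 tested regulators of slow fibre genes, 0 were called and 1 had an unadjusted *p* below 0.05 (median 0.45). *Mef2c*, a MADS-box activator, averaged 513 and 401 CPM, and *Sox6*, a repressor of slow genes, 68.6 and 89.8. Of 8 tested genes of fatty acid and mitochondrial fuel use, 0 were called and 0 had an unadjusted *p* below 0.05 (median 0.47), with *Lpl*, lipoprotein lipase, at 896 and 999 CPM and *Ckmt2*, the mitochondrial creatine kinase, at 656 and 564. In the fit, which scales by TMM and not by library totals, *Mef2c* was at 0.19 and *Ckmt2* at 0.06, opposite in direction to their CPM means.

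Markers of other cells were read beside these values. Among 7 tested fibroblast and tendon genes, 1 was called, *Fmod*, a tendon matrix proteoglycan (log2 fold change -4.28, edgeR adjusted *p* = 0.0322). The list summed to 10260 to 15956 CPM in wild-type muscle and 4984 to 7887 in Scx-/- muscle, so its sum was lower together with the slow genes. Of the 7, 5 had a log2 fold change below 0, while *Col3a1* (0.38) and *Dcn* (0.40) were above 0. *Tnmd*, a tendon membrane protein of the same list, was at -3.89 with an adjusted *p* of 0.771. Of the chondrocyte genes, *Col2a1* and *Comp* had a count in muscle, 0 were called, and the list summed to 0 to 197 CPM in wild-type and 0 to 12.9 in Scx-/- muscle. *Col2a1* was at 0 in all 3 Scx-/- libraries (log2 fold change -7.43, edgeR adjusted *p* = 0.287). Of 6 red cell genes, *Hbb-bs* was called (-9.60), at 0 to 446 CPM in wild-type and 0 in all Scx-/- libraries, while the list as a whole overlapped (188 to 604 and 276 to 1683 CPM). Of the 6, 4 had a log2 fold change above 0, among them *Hba-a1* (2.29, adjusted *p* = 0.0839) and *Alas2* (3.03, adjusted *p* = 0.336). DESeq2 gave an adjusted *p* for 3 of the 6, without *Hbb-bs*, and called 0 of these 3. Of the cardiac markers, *Tnni3*, *Mybpc3*, *Nppa*, and *Myl7* were at 0 in all 6 muscle libraries, *Myh6* was at most 5.77 CPM, and *Actc1*, which young skeletal muscle also expresses, made up most of the list's 4209 to 15964 CPM in wild-type and 5920 to 9408 in Scx-/- libraries. None of the smooth muscle, endothelial, adipocyte, or developmental myosin genes was called by edgeR, and 2 of them had an unadjusted *p* below 0.05. In cartilage *Hbb-bs* stood at 0 to 2097 CPM in wild-type and 0 to 3.62 in Scx-/- libraries. In bone it stood at 0 to 3715 and 0 to 94.6, so its maximum was lower in Scx-/- libraries there too. The part of the fibroblast, tendon, and *Hbb-bs* differences in the slow gene values was not tested.

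In heart the same genotype contrast gave 1 call among the 8 members, in the opposite direction. *Myh7* had 68.2, 0, and 3.55 CPM in wild-type hearts and 899, 3116, and 3480.1 in Scx-/- hearts, from 30, 0, and 1 counts and 197, 498, and 646 counts. Every Scx-/- heart lay above every wild-type heart. The fitted log2 fold change was 5.97 (SE 0.90, edgeR adjusted *p* = 5.07e-07), against 0.0391% of all genes called, and non-overlap in this direction was found for 1 of 8 members and 3.77% of all genes. Wild-type heart 2 had 11244 counts in all, so that 3 counts there equal 267 CPM, and without it the difference was 5.73 but its adjusted *p* was 0.873.

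The other members overlapped between genotypes. *Myl2* stood at 9813, 9160.4, and 11959 CPM in wild-type hearts and 15839, 12553, and 10586 in Scx-/- hearts. *Tnnc1* stood at 3192, 889, and 3754 CPM against 3589, 3523, and 3119, and *Atp2a2* at 8236, 5425, and 9196 against 8191, 7935, and 9336. The low value of each was that of wild-type heart 2. The groups overlapped for all 7, and their log2 fold changes ran from -1.07 to 0.41, with edgeR adjusted *p* of 0.93 or more. *Tnni1* had a count in 2 of 6 hearts and *Tnnt1* in 4 of 6, at most 50.1 CPM.

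*Myh6*, the adult myosin gene next to *Myh7*, stood at 5489.8, 4358, and 5108 CPM in wild-type hearts and 6712, 7034, and 5603 in Scx-/- hearts. Every Scx-/- heart thus lay above every wild-type heart, as for 3.77% of all genes, and *Myh6* was not called (log2 fold change 0.43, edgeR adjusted *p* = 0.931). None of the 10 cardiac marker genes was called by edgeR, 0 of the 8 with an adjusted *p* in DESeq2 (not *Myl7* or *Myl4*) were called by it, 2 had an unadjusted *p* below 0.05 against 3.41% of all genes (median log2 fold change 0.49), and the list summed to 32373 to 49324 CPM in wild-type and 45355 to 56439 in Scx-/- hearts. Genes of the atrium varied within wild-type hearts: *Nppa*, natriuretic peptide A, stood at 1614, 178, and 92.4 CPM against 4077, 2747, and 3739, and *Myl7*, the atrial light chain, at 1753, 178, and 56.8 against 1858, 1283, and 1702. *Nppa* was thus higher in all 3 Scx-/- hearts, as *Myh7* was, at an unadjusted *p* of 0.00171 by edgeR and an adjusted *p* of 0.738. Of the fast-twitch genes, *Casq1* was called lower (log2 fold change -8.49, edgeR adjusted *p* = 0.00302), and so was *Hbb-bs* (-5.73), at 3.55 to 4002 CPM in wild-type and 4.57 to 16.2 in Scx-/- hearts. Both calls were lost without heart Scx-/- 1, 2, or 3 and with the replicate block, fits in which 0 genes were called lower. No other of the 6 red cell genes was called. Of the 6, 4 had a log2 fold change below 0 and 2 above 0, with a median of -0.74. Those below 0 were *Hbb-bs*, *Hbb-bt* (-3.66), *Hba-a2*, and *Hba-a1* (-0.47), and those above were *Alas2* (0.10) and *Slc4a1* (0.48). The summed list overlapped between genotypes (1673 to 4625 and 857 to 2342 CPM). The part of atrial tissue, blood, and depth in the *Myh7* difference was not tested beyond these values.

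The genotype difference itself was then compared between heart and muscle with an interaction term over both tissues (edgeR, adjusted over all genes). It differed for 2 of 8 members, against 0.0254% of all genes. *Myh7* changed by 8.12 log2 units more in heart than in muscle (SE 1.09, adjusted *p* = 1.78e-09), and *Myl2* by 3.94 more (SE 0.84, adjusted *p* = 0.013). Without wild-type heart 2 the *Myh7* value was 7.92 and its adjusted *p* 0.0567, so that *Myl2* alone was called. The *Myl2* call was lost without heart Scx-/- 1 or 2, muscle wild-type 3, or muscle Scx-/- 2 or 3, with adjusted *p* of 0.0562 to 0.467. Without muscle wild-type 1 the count was 3, with *Myl3* added, beside 5 of all 15692 genes. With library totals as the scaling it was 5, beside 19 of all 15771 genes (0.120%) in place of 4.

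Heart and muscle were also compared within each genotype. In wild-type mice 5 of 8 members were called, against 0.788% of all genes: *Atp2a2* (log2 heart over muscle 4.27), *Myl3* (4.09), *Myl2* (3.59), and *Mb* (3.08) were higher in heart and *Tnni1* (-5.52) was lower. The values for *Tnnt1* (-4.20), *Tnnc1* (3.09), and *Myh7* (-3.17) had edgeR adjusted *p* of 0.0641, 0.0932, and 0.384. In Scx-/- mice 3 of 8 were called, against 3.81% of all genes, namely *Myl2* (7.51), *Atp2a2* (6.22), and *Tnnc1* (5.76). *Myh7* was lower in heart than in muscle in wild-type mice and higher in heart in Scx-/- mice (4.99, edgeR adjusted *p* = 0.233), neither past the threshold. The second of these was called with DESeq2, with filterByExpr, and without muscle Scx-/- 3. In wild-type mice RLE scaling, library totals, filterByExpr, and DESeq2 each called 7 members, beside 1.60%, 2.02%, 4.01%, and 4.85% of all genes in those fits. A block for the replicate number called 0, as was the case without muscle wild-type 2. Without heart wild-type 1 the number was 2, without heart or muscle wild-type 3 it was 1, without heart wild-type 2 it was 7 (1.26% of all genes), and without muscle wild-type 1 it was 5 (1.11% of all genes), with *Tnnt1* in place of *Mb*.

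The cartilage and bone libraries held skeletal muscle genes at high levels, the slow genes among them. Fast-twitch genes made up 9.14% of counts in wild-type and 9.56% in Scx-/- cartilage, and *Acta1*, skeletal actin, stood at 51956 to 61950.0 CPM over the 6 libraries. The chondrocyte genes *Col2a1* (4555 and 5120 CPM on average) and *Acan* (591 and 579.7) were present, and *Matn1*, another cartilage matrix gene, was at 0. In bone the fast genes made up 3.99% and 4.76% of counts, beside osteoblast genes such as *Ibsp* (1445 and 1360 CPM on average). The 8 slow genes summed to 5385 ± 909 CPM in wild-type and 5324 ± 877 in Scx-/- cartilage, and to 3620 ± 1844 and 2433 ± 1085 in bone.

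**Figure D4:**
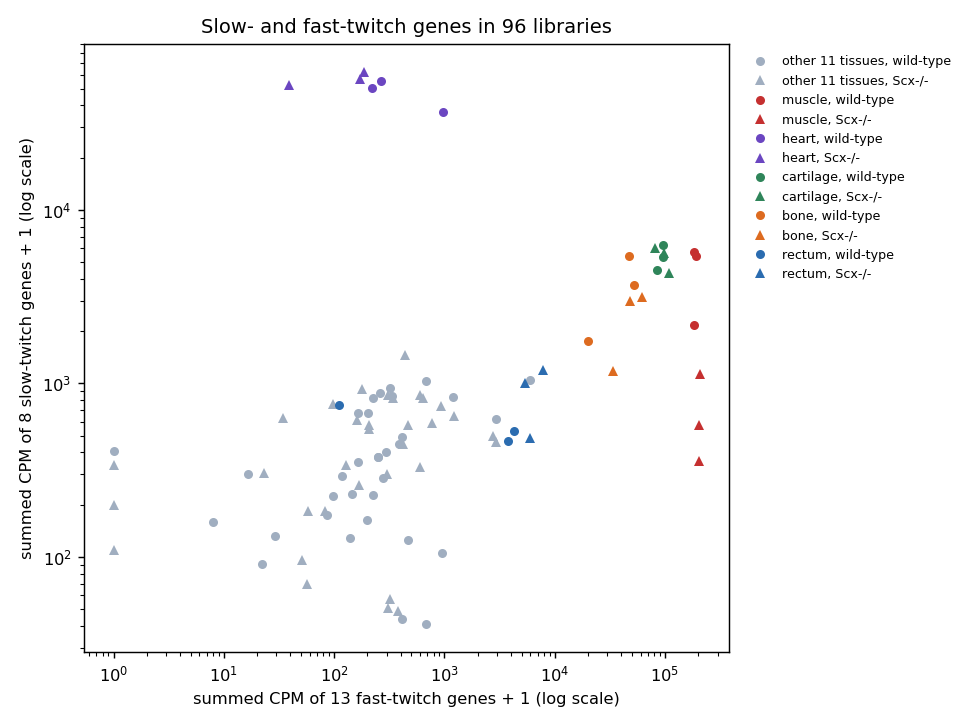
Summed CPM of the 8 slow-twitch genes against that of 13 fast-twitch genes, both + 1 on log axes, for all 96 libraries by tissue (colour) and genotype (shape). Heart stood high on the slow axis alone, Scx-/- muscle (357 to 1134 CPM of slow genes) lay below wild-type muscle on the slow axis and slightly above it on the fast axis (202059 to 207340 against 181677 to 192722 CPM), and the cartilage libraries of both genotypes stayed together.

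None of the 8 members was called between genotypes in cartilage, against 0.0222% of all genes, or in bone, against 0% of all genes, by edgeR, and DESeq2 also called 0 in both. By unadjusted *p* below 0.05, 1 member passed in cartilage, against 3.21% of all genes, and 0 in bone, against 3.54%. In cartilage *Tnnt1* stood at 689, 464, and 294 CPM in wild-type libraries and 608, 584, and 804 in Scx-/- libraries. *Myl2* stood at 780.5, 343, and 388 CPM against 554, 399, and 576, and *Myh7* at 638, 468, and 493 against 719, 389.6, and 873, all overlapping. *Tnnc1*, at 207, 105, and 145 CPM against 273, 307, and 442, was the 1 member without overlap, with the Scx-/- libraries above, as were 3.31% of all genes (log2 fold change 1.20, edgeR adjusted *p* = 0.769). Of the 8 members, 6 had a log2 fold change above 0 in cartilage, where all 8 were below 0 in muscle.

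The interaction term between cartilage and muscle, added after the data had been seen, called 1 of 8 members, against 0.0188% of all genes. *Myl2* changed by 3.56 log2 units more in cartilage than in muscle (SE 0.79, edgeR adjusted *p* = 0.0313). Without the cartilage library labelled Scx-/- 1, which held *Scx* counts, the value was 3.48 and its adjusted *p* 0.223. The call was also lost without muscle wild-type 3, muscle Scx-/- 2 or 3, cartilage wild-type 2 or 3, or cartilage Scx-/- 3, and with the replicate block. Without muscle wild-type 1 the count was 4, beside 8 of all 15869 genes. RLE scaling and library totals each called 4 members as well, beside 12 and 11 of all 15938 genes in place of 3.

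Bone was more variable. *Myl2* stood at 130.02, 234, and 530.4 CPM in wild-type and 108, 402, and 757 in Scx-/- bone, *Tnnt1* at 0, 33.5, and 21.2 against 66.5, 129, and 0, and *Mb* at 893, 3380.0, and 1273 against 665, 1352, and 1136. The groups overlapped for each of these 3 genes, and bone libraries held 42272 to 240564 counts.

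Slow genes were higher relative to fast genes in cartilage than in muscle. Over both genotypes, 7 of 7 pairs had a higher ratio in cartilage (exact two-sided permutation test over all divisions of the 12 libraries, adjusted over 21 tests). *Myh7*/*Myh4* differed most, by 4.56 log2 units (adjusted *p* = 0.0152 from an exact *p* of 0.0022, the smallest the test allows), and *Tnnc1*/*Tnnc2* least, by 2.21 (adjusted *p* = 0.0369, exact). The difference was larger among Scx-/- libraries. Among wild-type libraries the differences were 0.17 to 3.02 and the tissues overlapped for all pairs but *Myh7*/*Myh4* and *Atp2a2*/*Atp2a1*, while among Scx-/- libraries they were 3.36 to 6.11 and no pair overlapped. Wild-type cartilage had 68.2 reads of *Myh7* per 1000 of *Myh4* (54.2 to 88.9 over libraries) and wild-type muscle 8.43 (5.55 to 17.6).

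Bone differed from muscle for 5 of 7 pairs by the same test, by 2.41 (*Tnnc1*/*Tnnc2*), 3.31 (*Myl2*/*Mylpf*), 3.97 (*Myl3*/*Myl1*), 3.42 (*Myh7*/*Myh4*), and 3.46 (*Atp2a2*/*Atp2a1*). In the same order these differences were 0.84, 1.32, 3.23, 2.39, and 2.89 among wild-type libraries, with overlap for the first 2 pairs, and 3.98, 5.29, 4.70, 4.45, and 4.03 among Scx-/- libraries, with no overlap. *Tnnt1*/*Tnnt3* (-0.32, adjusted exact *p* = 0.76) and *Tnni1*/*Tnni2* (1.61, adjusted exact *p* = 0.303) did not pass. For *Tnnt1*/*Tnnt3*, bone lay below muscle among wild-type libraries (-2.37, no overlap), from 0 to 2 counts of *Tnnt1* in bone. Among Scx-/- libraries bone lay above muscle on average (1.73, with overlap). *Atp2a2* was also abundant in cortex and bladder, and how much of it came from muscle fibres in bone and rectum was not tested.

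**Figure D5:**
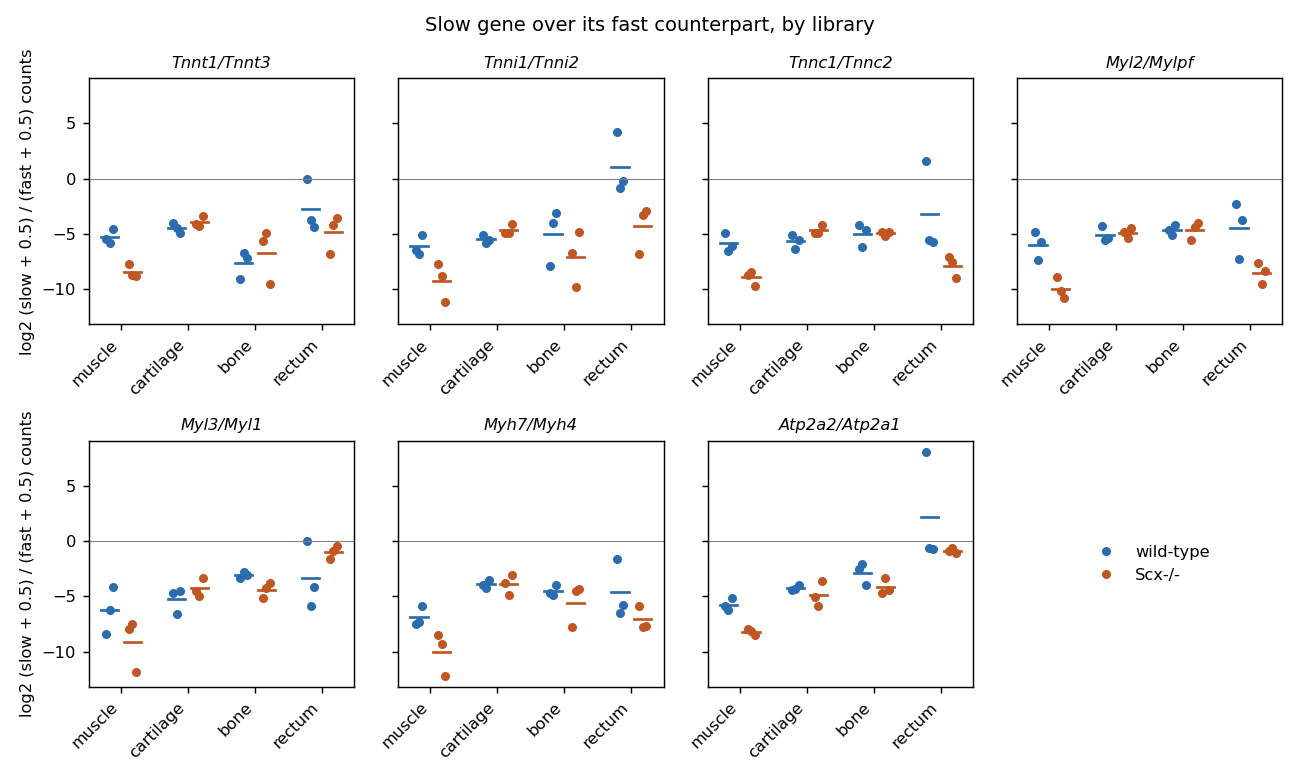
Log2 ratio of each slow gene to its fast counterpart (counts + 0.5) in muscle, cartilage, bone, and rectum, 1 point per library with wild-type and Scx-/- side by side and a line at the mean. Mean ratios were lower in Scx-/- than in wild-type muscle for all 7 pairs, and cartilage lay above muscle on average for all 7 pairs.

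In rectum *Myl3* was called higher in Scx-/- libraries, as were some skeletal muscle genes and most listed skin genes, while *Mb* did not overlap between genotypes but was not called. *Myl3* had 0, 0, and 20.1 CPM in wild-type rectum and 152, 359.7, and 258 in Scx-/- rectum, that is 1 count of 350381 against 176 of 623520, a ratio of 98.9 with a 95% counting interval of 17.5 to 3928. *Mb* had 0, 0, and 20.1 CPM against 50.8, 234, and 274, or 1 count against 144 (ratio 80.9, interval 14.3 to 3218). For both genes every Scx-/- library lay above every wild-type library. Of the 7 members tested, 1 was called, *Myl3* (log2 fold change 6.04, SE 1.51, edgeR adjusted *p* = 0.0165), against 0.441% of all genes, and 2 of 7 did not overlap with the Scx-/- libraries above, as did 5.88% of all genes. *Mb* was at 5.59 with an edgeR adjusted *p* of 0.185. The *Myl3* call was lost with the replicate block (adjusted *p* = 0.135) and without wild-type 1, wild-type 2, Scx-/- 2, or Scx-/- 3 (0.133 to 0.859), while its log2 fold change stayed at 5.14 or more. *Mb* was called along with it by DESeq2 and without wild-type 3 or Scx-/- 1.

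The other members of rectum went other ways. *Tnni1* stood at 129, 229, and 241 CPM in wild-type and 0, 134, and 95.5 in Scx-/- rectum, *Atp2a2* at 612, 289, and 141 against 279.5, 420.3, and 303, and *Myh7* was at 0 in all 6 libraries. Of the skeletal muscle genes, 1 of 13 fast-twitch genes and 2 of 8 genes of all fibres were called higher by edgeR, and DESeq2 called 0 of the 13 and 0 of the 7 of all fibres to which it gave an adjusted *p*. *Tnnt3* stood at 4.6, 241, and 201 CPM against 711, 858, and 974 (log2 fold change 2.83, edgeR adjusted *p* = 0.0121), and *Ckm* (2.44), *Acta1* (1.74), and *Myh8*, the perinatal myosin (6.68), were called with it, while DESeq2 called *Myh8* alone of these 4. Of 6 epidermal keratin and envelope genes, 5 were called higher (*Krt5*, *Krt14*, *Krt1*, *Krt10*, and *Lor*), and the list summed to 532 ± 250 CPM in wild-type and 10057 ± 5653 in Scx-/- rectum. The 8 smooth muscle genes summed to 19492 to 23010 CPM in wild-type and 1575 to 17354 in Scx-/- rectum, with 0 called by either tool and 0 at an unadjusted *p* below 0.05, against 5.04% of all genes. Of 6 red cell genes *Hbb-bs* was called lower (log2 fold change -8.25, edgeR adjusted *p* = 0.00174), at 0 to 794 CPM in wild-type and 0 in all Scx-/- libraries, and the list overlapped (20.1 to 938 and 54.1 to 1118 CPM). The part of these marker differences in the *Myl3* and *Mb* values was not tested.

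Against muscle, the slow to fast ratio in rectum was higher for 4 of 7 pairs by the exact permutation test, by 3.07 for *Tnnt1*/*Tnnt3*, 6.04 for *Tnni1*/*Tnni2*, 5.53 for *Myl3*/*Myl1*, and 7.66 for *Atp2a2*/*Atp2a1*. In the same order the differences were 2.57, 7.17, 2.92, and 7.98 among wild-type libraries, with overlap for *Myl3*/*Myl1*, and 3.57, 4.91, 8.13, and 7.33 among Scx-/- libraries, with no overlap. Wild-type rectum 1, whose fast genes summed to 110.4 CPM, had the highest ratio of all 6 libraries for each of the 7 pairs, from 0 to 2 counts of the fast gene. Without it 3 pairs passed, and *Tnnt1*/*Tnnt3* did not.

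In the other 11 tissues 0 of 72 member tests were called by edgeR (lowest adjusted *p* = 0.614), and 0 of the 47 with an adjusted *p* in DESeq2. By unadjusted *p* below 0.05, 2 of the 72 passed, against 4.01% of all gene tests in these tissues. *Tnnc1* stood at 39.8, 124, and 77.9 CPM in wild-type and 12.9, 30.9, and 39.3 in Scx-/- cortex, without overlap, as was found for 3.63% of all genes in that direction. *Myl3* in vascular tissue was at 0 in all wild-type libraries and at 0 to 235 in Scx-/- libraries. Of all genes, 0.0091% were called in adipose, 0.112% in bladder, 0% in cortex and intestine, 0.00708% in hippocampus, 0.195% in kidney, 0.442% in liver, 0.00727% in lung, 0.0072% in spleen, 0.0609% in stomach, and 0.0329% in vascular tissue.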

How the data were processed

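Bulk RNA was sequenced in 3 libraries for each of 16 tissues and both genotypes. The authors deposited raw counts per gene, made with Bowtie2 and HTSeq on mm10, per the labels and methods; no source used here gives their versions, the annotation, or the strand setting. Such counts per gene do not resolve isoforms, and reads shared by near-identical genes may be split or lost. CPM was computed here on library totals. Genes with a count in a tissue's 6 libraries were tested with edgeR 4.0.16 in R 4.3.3 (TMM, robust quasi-likelihood fit, Benjamini-Hochberg adjustment over all genes tested, threshold 0.05), which was tested on simulated data. With 3 libraries a group the test misses many moderate changes, so a gene that was not called is not shown to be unchanged. Standard errors are approximate, from the fold change and its F statistic. Slow to fast ratios used counts + 0.5 and exact permutation. Alternatives were RLE scaling, library totals, filterByExpr, DESeq2 1.42.0 (the tool of the study), a replicate block, a pseudocount of 1, and leaving out each library. The text names the 8 members, their 7 fast partners, *Scx*, up to 4 of the most abundant genes and any called gene of each list described, some further genes of these lists, and the genes closest in pattern. The members and lists were chosen with earlier results of these data known. Sequences are from RefSeq, with a promoter window for 7 of 8 members.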

Additional observations from a re-analysis of the deposited data

Results flagged for a closer look

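In 3 cases a genotype difference differed between tissues by the interaction test (edgeR quasi-likelihood, Benjamini-Hochberg adjusted). For *Myh7* the log2 difference was 8.12 higher in heart than in muscle (adjusted *p* = 1.78e-09), with all 3 Scx-/- hearts above and all 3 Scx-/- muscle libraries below their wild-type libraries. Without wild-type heart 2, which held 11244 counts, it was 7.92 with an adjusted *p* of 0.0567. For *Myl2* it was 3.94 higher in heart than in muscle (adjusted *p* = 0.013) and 3.56 higher in cartilage than in muscle (adjusted *p* = 0.0313). The first was lost without any of 5 single libraries, and the second without any of 7 and with the replicate block. *Mb* moved in opposite directions without overlap in muscle (-1.82) and rectum (5.59), a gap of 7.40 log2 units, and this difference was not tested. Groups of 3 libraries were not examined for single outlying libraries.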

How the results depend on the processing

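Without libraries under 50000 counts, all 33 mean levels recomputed moved by less than 1 SD. With TMM-scaled totals 25 did, and the 8 means of Scx-/- muscle were higher by more than that, *Tnnt1* for example from 59.8 to 116 CPM. The order of tissues was not recomputed without single libraries. The counts of members called in cartilage, bone, and the other 11 tissues stayed at 0 in all fits run. All 8 muscle fold changes stayed below 0 in each of them. In muscle 1 member was called, against 4 with RLE scaling, 5 with library totals, 3 with filterByExpr, and 4 with DESeq2; leaving out 1 library at a time gave 0 to 5 (5 without wild-type 1, 2 without wild-type 2, and 0 without wild-type 3, Scx-/- 2, or Scx-/- 3). At the thresholds of the methods the 8 members became 4 to 8, with 4 without wild-type 3 and 5 without Scx-/- 3. In heart the 1 call became 0 to 1, lost without wild-type 2. In rectum the 1 call became 2 with DESeq2, 0 with the replicate block, and 0 to 2 without single libraries.

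Of heart against muscle in wild-type mice, 5 calls became 0 with the replicate block, 7 with each of RLE scaling, library totals, filterByExpr, and DESeq2, and 0 to 7 without single libraries. In Scx-/- mice 3 calls became 6 with filterByExpr, 6 with DESeq2, and 3 to 6 without single libraries. The interaction of heart with muscle gave 4 calls with RLE scaling, 5 with library totals, and 1 to 3 without single libraries, in place of 2. That of cartilage with muscle, chosen after seeing the data, gave 4 with RLE scaling, 4 with library totals, 3 with filterByExpr, 3 with DESeq2, 0 with the replicate block, and 0 to 4 without single libraries, in place of 1. The 7 pairs of cartilage became 5 to 7, and the 4 of rectum 3 to 5. Over all genes of muscle, 7 were called, against 15 with RLE scaling, 32 with library totals, 12 with DESeq2, 3 with the block, and 59 without wild-type 1. The cause of these shifts was not tested.

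Replicate numbers were not taken as pairs, since in 0 of 18 comparisons was every same-number correlation above 0.1. In Scx-/- mice each muscle library correlated best with the heart library of its number, at an r of at most 0.0444. Under the replicate block *Myh7* in bone turned to -0.34 and *Atp2a2* in rectum to 0.32, and with a pseudocount of 1 *Tnnt1*/*Tnnt3* in bone against muscle turned to 0.12. Leaving out single libraries turned the sign of values that were not called. In heart the log2 fold change ran from -1.76 to 1.32 for *Tnnt1*, -0.25 to 0.65 for *Tnnc1*, -3.18 to 1.85 for *Tnni1*, -0.18 to 0.65 for *Myl3*, -0.26 to 0.46 for *Atp2a2*, and -0.23 to 0.54 for *Mb*. In cartilage it ran from -0.18 to 0.58 for *Myl2* and -0.68 to 0.29 for *Atp2a2*, in bone from -0.16 to 0.72 for *Tnnc1* and -0.38 to 0.86 for *Myh7*, and in rectum from -1.83 to 1.60 for *Tnnc1* and -0.43 to 0.87 for *Atp2a2*. The heart interaction of *Tnni1* ran from -1.80 to 4.60, and *Tnnt1*/*Tnnt3* in bone against muscle from -0.77 to 0.15. With 30409 counts in wild-type muscle 1 and 11244 in wild-type heart 2, a gene at 0 there may stand at up to 98.7 and 267 CPM.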
